A study of Mus musculus with 8 samples.

Results

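Branched-chain amino acid breakdown was described here through 10 genes chosen by name: Bcat2, Bckdha, Bckdhb, Dbt, Bckdk, Ivd, Hibadh, Pcca, Pccb and Mmut (Mut in older annotation). Each had 1 probe set among the 21212 on the arrays, and all 10 were tested, since no filter on low signal was applied. The 8 arrays held RNA of the calf muscles gastrocnemius and plantaris, 1 RNA sample per array, from female wild type C57BL/6J mice aged 7 weeks and housed singly. In the hind limb unloaded (HU) mice (4 arrays) the hind limbs were kept off the cage floor for 5 days, a model of disuse atrophy. The weight bearing (WB) mice (4 arrays) were the controls. No knockout, transgene or drug was used in any of these mice, and RNA was sampled at a single time point. Values are log2 expression after robust multi-array analysis (RMA), a difference of 1 on that scale being a doubling. A probe set was called higher or lower where limma gave an adjusted p under 0.05, with Benjamini-Hochberg adjustment over all 21212 probe sets.

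Leucine, isoleucine and valine are broken down largely outside the liver, and skeletal muscle is a main site of the first step. That step is reversible: the mitochondrial aminotransferase BCAT2 moves the amino group to 2-oxoglutarate, giving glutamate and a branched-chain keto acid. The second step commits the carbon skeleton: the branched-chain keto acid dehydrogenase complex, built of the E1 subunits BCKDHA and BCKDHB, the E2 core DBT and the E3 subunit DLD, decarboxylates the keto acid. The kinase BCKDK phosphorylates BCKDHA and switches the complex off, and the phosphatase PPM1K switches it on. The branches then part: IVD acts on leucine, HIBADH on valine, and propionyl-CoA carboxylase (PCCA with PCCB) followed by methylmalonyl-CoA mutase (MMUT) carries the products of valine and isoleucine into the TCA cycle.

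The promoters below are printed because their genes moved in different directions between the groups (Bckdhb against Pcca, Pccb and Bcat2), and because Pcca and Pccb encode the subunits of a single enzyme. Bcat2 is also, alone of the 10 genes, on the study's list of genes with a promoter Bcl-3 peak increased by unloading. That list came from chromatin data not analysed here, with a promoter range of several kilobases, far wider than the windows below. The share of all genes on it was not worked out here, so the place of Bcat2 on it is not read as a result. Each window runs from 250 bases before to 50 bases after a transcription start in RefSeq (build GRCm38.p6), 5′ to 3′ on the gene's strand. Capitals mark 3 motifs on either strand: the CCAAT box (CCAAT), the CACCC box (CACCC) bound by Krüppel-like factors, and the GC box (GGGCGG). No marked motifs shared bases. Bcat2, Bckdhb and Pcca each had a further start in the table, and the window farthest upstream is shown. The windows not shown begin at chr14:122534078 for Pcca, chr9:83948531 for Bckdhb and chr7:45571029 for Bcat2. Which start is used in muscle was not tested. The windows are Pcca chr14:122484115-122484414 (plus strand), Pccb chr9:101034835-101035134 (minus strand), Bckdhb chr9:83924887-83925186 (plus strand) and Bcat2 chr7:45569903-45570202 (plus strand).
Pcca: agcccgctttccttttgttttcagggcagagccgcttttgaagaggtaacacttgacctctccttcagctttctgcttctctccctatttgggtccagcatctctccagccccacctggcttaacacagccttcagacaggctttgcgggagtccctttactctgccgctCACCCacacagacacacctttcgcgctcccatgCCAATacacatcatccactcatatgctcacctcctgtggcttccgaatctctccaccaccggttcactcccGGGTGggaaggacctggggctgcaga
Pccb: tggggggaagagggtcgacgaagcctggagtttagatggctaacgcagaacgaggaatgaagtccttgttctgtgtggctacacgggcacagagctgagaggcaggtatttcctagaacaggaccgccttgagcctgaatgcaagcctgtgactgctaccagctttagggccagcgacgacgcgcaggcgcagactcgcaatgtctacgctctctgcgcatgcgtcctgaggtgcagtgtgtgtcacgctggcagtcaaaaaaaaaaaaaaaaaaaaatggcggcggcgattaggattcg
Bckdhb: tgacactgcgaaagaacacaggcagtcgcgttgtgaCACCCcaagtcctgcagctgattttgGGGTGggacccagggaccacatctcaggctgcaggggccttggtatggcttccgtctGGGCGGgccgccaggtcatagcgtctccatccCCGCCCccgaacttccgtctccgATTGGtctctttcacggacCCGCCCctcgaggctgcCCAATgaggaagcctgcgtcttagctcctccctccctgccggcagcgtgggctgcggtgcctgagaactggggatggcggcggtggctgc
Bcat2: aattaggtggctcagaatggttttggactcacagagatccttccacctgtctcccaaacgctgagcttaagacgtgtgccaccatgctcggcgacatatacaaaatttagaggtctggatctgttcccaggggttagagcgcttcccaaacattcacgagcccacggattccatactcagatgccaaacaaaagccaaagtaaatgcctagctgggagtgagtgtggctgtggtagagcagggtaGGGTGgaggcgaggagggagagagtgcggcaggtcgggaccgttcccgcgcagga

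The printed Pcca window held 1 CCAAT box and 2 CACCC boxes, and the printed Pccb window held 0 of the 3 motifs. The Bckdhb window held 2 CCAAT boxes, 2 CACCC boxes and 3 GC boxes, and the Bcat2 window held 1 CACCC box. The second windows of these genes, not printed, differed: that of Bckdhb held 1 CCAAT box and 0 of the other motifs, that of Bcat2 held 0 of the 3, and that of Pcca held 1 CCAAT box, 2 CACCC boxes and 2 GC boxes. GC content was 55.7% for Pcca, 54.3% for Pccb, 65.0% for Bckdhb and 54.0% for Bcat2, beside a median of 52.7% over all windows of this length. Among all 32851 mouse promoter windows, 37.4% held CCAAT, 57.5% CACCC and 35.7% GGGCGG, so each motif is common. The NF-kB motif was found in 4.5% of all windows and in 0 of the 11 windows of the 8 genes that had one. These matches describe letters only, and in windows this short they do not bear on the study's Bcl-3 peaks. Dbt and Mmut had no window in the table used.

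Of the 10 genes, 5 fell in unloaded muscle (Bcat2, Dbt, Ivd, Pcca and Pccb), 1 rose (Bckdhb), and 4 did not pass the test (Bckdha, Bckdk, Hibadh and Mmut). Over all probe sets 11.0% were called lower and 12.8% higher. The log2 changes of the 10 genes, unloaded minus weight bearing, ran from -0.33 for Dbt to 0.19 for Bckdhb with a median of -0.16, beside a median of 0.04 over all 21212 probe sets. All the changes were small, at most 1.26-fold. The 4 unloaded arrays lay wholly below the 4 weight bearing arrays for 6 genes and wholly above them for 1 gene, beside 12.0% and 15.5% of all probe sets. By the methods' t-test, run here with unequal variances and adjusted over all probe sets, 2 genes were lower (Ivd and Pcca) and 1 higher (Bckdhb), beside 6.48% and 6.57% of all probe sets.

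**Figure D1:**
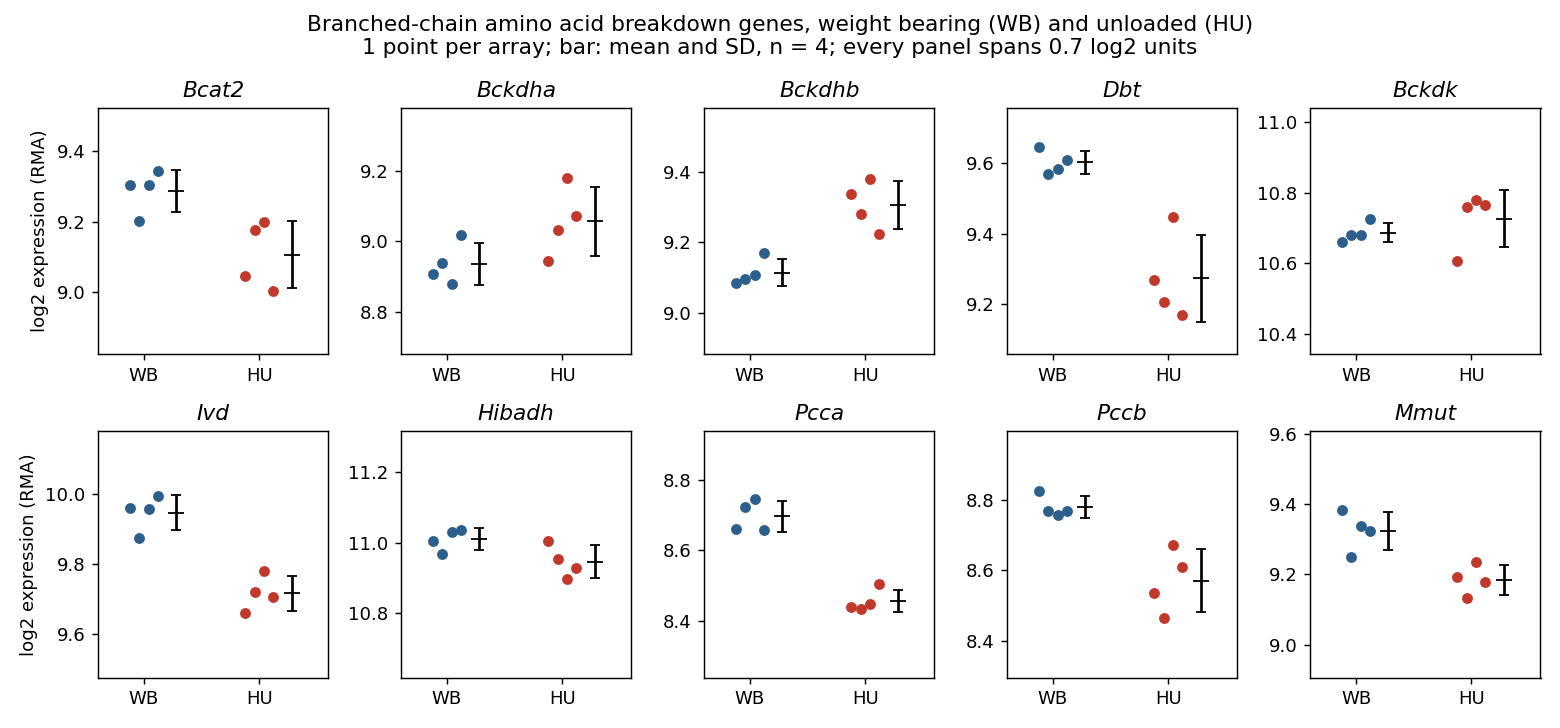
Log2 expression (RMA) of the 10 genes on each array, weight bearing (WB, blue) and unloaded (HU, red), with the mean and SD of 4 arrays beside each group; every panel spans 0.7 log2 units. The unloaded arrays lie below all weight bearing arrays for Bcat2, Dbt, Ivd, Pcca, Pccb and Mmut and above them for Bckdhb, and the groups overlap for Bckdha, Bckdk and Hibadh.

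At the first step, the aminotransferase gene Bcat2 fell slightly. Its log2 values were 9.05, 9.18, 9.20 and 9.01 on the unloaded arrays and 9.30, 9.20, 9.30 and 9.34 on the weight bearing arrays. The groups did not overlap, but the highest unloaded array (replicate 3) and the lowest weight bearing array (replicate 2) nearly met. The mean went from 9.29 ± 0.06 to 9.11 ± 0.10 (SD, n = 4 arrays each), a change of -0.18 (SE 0.06, 95% interval -0.31 to -0.05), or 1.13-fold lower. The limma adjusted p was 0.0496, at the edge of the threshold. The call was lost by the methods' t-test (adjusted p = 0.101), with quantile normalization (0.0856) and with array weights (0.0509). It was also lost when any of unloaded replicates 1, 2 and 4 or weight bearing replicates 1, 3 and 4 was left out (0.0567 to 0.125).

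In the dehydrogenase complex the genes of its components moved in different directions. Dbt, the E2 core that carries the acyl group, had the largest fall of the 10 genes. Its values were 9.27, 9.21, 9.45 and 9.17 in unloaded muscle and 9.65, 9.57, 9.58 and 9.61 in weight bearing muscle. Every unloaded array was below every weight bearing array, and unloaded replicate 3 was the highest of its group. The mean was 9.27 ± 0.12 against 9.60 ± 0.03 (SD, n = 4 arrays each), a change of -0.33 (SE 0.06, 95% interval -0.47 to -0.19), or 1.26-fold lower (limma adjusted p = 0.00454). The methods' t-test, which lets each group keep its own variance, gave an adjusted p of 0.0620, which did not pass the threshold.

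Bckdhb, the beta subunit of E1, was the 1 gene of the 10 that rose. The unloaded arrays read 9.34, 9.28, 9.38 and 9.22 and the weight bearing arrays 9.08, 9.09, 9.11 and 9.17. All unloaded values were above all weight bearing values, with unloaded replicate 4 closest to the weight bearing group. The change was 0.19 (SE 0.05, 95% interval 0.08 to 0.30), or 1.14-fold higher, with limma adjusted p = 0.0208 and an adjusted p of 0.0447 by the methods' t-test. The limma call was lost without unloaded replicate 3 (0.0582), weight bearing replicate 1 (0.0565) or weight bearing replicate 2 (0.0514).

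Bckdha, the alpha subunit of E1 that carries the regulatory phosphorylation site, did not pass the test. Its values were 8.94, 9.03, 9.18 and 9.07 in unloaded and 8.91, 8.94, 8.88 and 9.02 in weight bearing muscle, and the groups overlapped. The change was 0.12 (95% interval -0.01 to 0.25, limma adjusted p = 0.166). Dld, the E3 subunit, was not among the 10 genes and is shared with the pyruvate and 2-oxoglutarate dehydrogenases. It read 9.78, 9.55, 9.77 and 9.58 in unloaded and 9.99, 9.96, 10.10 and 10.04 in weight bearing muscle, with no overlap, a change of -0.35 (limma adjusted p = 0.00426).

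The kinase gene Bckdk, whose product inhibits the complex, did not pass the test either. It read 10.60, 10.76, 10.78 and 10.76 in unloaded and 10.66, 10.68, 10.68 and 10.73 in weight bearing muscle. Of the 4 unloaded arrays 3 lay above all weight bearing arrays and replicate 1 lay below them. The change was 0.04 (95% interval -0.08 to 0.16, limma adjusted p = 0.606). Ppm1k, the gene of the opposing phosphatase, changed by -0.09 (95% interval -0.28 to 0.11, limma adjusted p = 0.506).

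Differences between 2 genes on the same array were tested for 3 pairs with an exact permutation test (two-sided, 70 splits of the 8 arrays, smallest possible p 0.0286). Levels of different probe sets are not on a common scale, so only the shift of a difference between the groups is read. Bckdk minus Bckdha, the kinase against its substrate, was 1.67 ± 0.05 in unloaded and 1.75 ± 0.04 in weight bearing muscle (SD, n = 4 arrays each), a shift of -0.08 (exact permutation p = 0.0571, adjusted over the 3 pairs 0.171). Bckdha minus Bckdhb shifted by -0.07 (exact permutation p = 0.286, adjusted 0.429). Pcca minus Pccb, the subunits of propionyl-CoA carboxylase, shifted by -0.03 (exact permutation p = 0.6, adjusted 0.6). None of the 3 shifts passed the test. After adjustment over the 3 pairs, a single pair at the smallest possible p could not have passed either. These results therefore do not show that the paired genes changed equally. Bckdhb minus Dbt was chosen after its values were seen and was not tested: it was 0.07, 0.07, -0.07 and 0.05 on the unloaded arrays and -0.56, -0.48, -0.48 and -0.44 on the weight bearing arrays. The mean difference between the E1 beta and E2 genes was 0.52 higher in unloaded muscle.

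**Figure D2:**
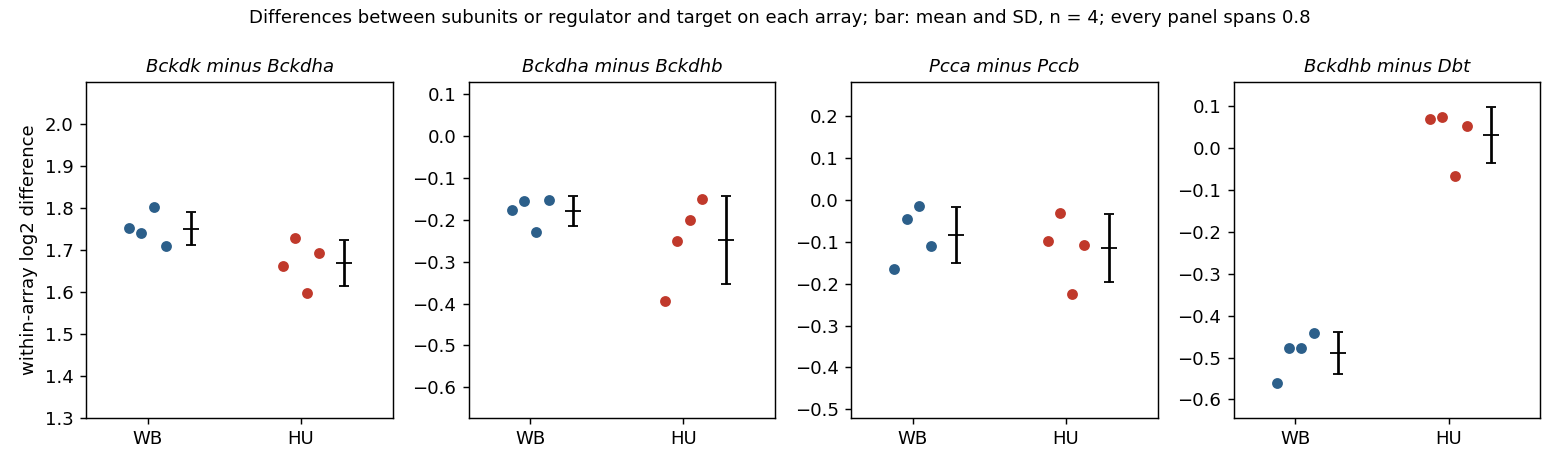
Within-array log2 difference between 2 genes, weight bearing (WB, blue) and unloaded (HU, red), 1 point per array, with mean and SD of 4 arrays; every panel spans 0.8. The groups overlap in the first 3 panels, and in the last, Bckdhb minus Dbt, the unloaded arrays lie between -0.07 and 0.07 and the weight bearing arrays between -0.56 and -0.44.

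In the leucine branch, Ivd, the isovaleryl-CoA dehydrogenase that follows the complex, fell. Its values were 9.66, 9.72, 9.78 and 9.71 in unloaded and 9.96, 9.88, 9.96 and 9.99 in weight bearing muscle. The groups were clearly apart. The mean went from 9.95 ± 0.05 to 9.72 ± 0.05 (SD, n = 4 arrays each), a change of -0.23 (SE 0.05, 95% interval -0.34 to -0.12), or 1.17-fold lower (limma adjusted p = 0.00765). The methods' t-test gave 0.0157, and the call held in each of the 16 alternatives tried.

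Further down the leucine branch, Mccc1, the biotin-carrying subunit of methylcrotonyl-CoA carboxylase, changed by -0.20 (limma adjusted p = 0.0377), a call lost by the methods' t-test (0.0882) and without any of unloaded replicates 2, 3 and 4 or weight bearing replicates 1, 3 and 4 (0.0561 to 0.0978). Its partner subunit Mccc2 changed by -0.04 (0.610) and the hydratase gene Auh by 0.07 (0.532), and neither passed the test.

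In the valine branch, Hibadh, the 3-hydroxyisobutyrate dehydrogenase, did not pass the test. It read 11.01, 10.95, 10.90 and 10.93 in unloaded and 11.00, 10.97, 11.03 and 11.04 in weight bearing muscle, and the groups overlapped. The change was -0.06 (limma adjusted p = 0.327). Its neighbours in the branch moved both ways: Hibch, which makes the substrate of HIBADH, fell by 0.27 on the log2 scale (limma adjusted p = 0.0198). Aldh6a1, which takes its product onward to propionyl-CoA, rose by 0.21 (0.0200), and Echs1, a hydratase shared with fatty acid oxidation, rose by 0.23 (0.0216). These 3 calls were lost by the methods' t-test (0.0923, 0.0767 and 0.0611) and without unloaded replicate 3 (0.0543, 0.0532 and 0.0581). Hibch also lost its call without unloaded replicate 2 (0.0551) or weight bearing replicate 1 (0.0516), Aldh6a1 without weight bearing replicate 1 (0.0584) or 2 (0.0547), and Echs1 without unloaded replicate 4 (0.0511) or weight bearing replicate 2 (0.0530).

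At the propionyl-CoA step both subunit genes fell. Pcca, the biotin-carrying alpha subunit, read 8.44, 8.43, 8.45 and 8.50 in unloaded and 8.66, 8.72, 8.74 and 8.66 in weight bearing muscle. It had the narrowest spread among the unloaded arrays of the 10 genes and no overlap between groups. The change was -0.24 (SE 0.05, 95% interval -0.34 to -0.14), or 1.18-fold lower (limma adjusted p = 0.00417, 0.00843 by the methods' t-test), and the call held in each of the 16 alternatives.

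Pccb, the beta subunit that carries the carboxyltransferase activity, read 8.54, 8.46, 8.67 and 8.61 in unloaded and 8.83, 8.77, 8.76 and 8.77 in weight bearing muscle. The groups did not overlap. The change was -0.21 (SE 0.05, 95% interval -0.33 to -0.09), or 1.16-fold lower (limma adjusted p = 0.0195). The call was lost by the methods' t-test (0.0739) and without unloaded replicate 2 (0.0521) or weight bearing replicate 1 (0.0551).

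Mmut, the vitamin B12-dependent mutase at the end of this branch, read 9.19, 9.13, 9.23 and 9.18 in unloaded and 9.38, 9.25, 9.34 and 9.32 in weight bearing muscle. The groups did not overlap, although the highest unloaded and the lowest weight bearing array were close. The change was -0.14 (95% interval -0.25 to -0.03), and the limma adjusted p of 0.0608 did not pass the threshold. It passed with an intensity trend and robust variance (0.0334) and when the dimmest 25% (0.0433) or 50% (0.0270) of probe sets were left out. Mcee, the epimerase between the carboxylase and the mutase, changed by -0.11 (0.119) and did not pass, except with the intensity trend and robust variance (0.0483).

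Taking the other 13 listed enzymes of the pathway, 5 fell (Bcat1, Dld, Hibch, Acat1 and Mccc1), 2 rose (Echs1 and Aldh6a1) and 6 did not pass the test, with a median change of -0.09. Bcat1, the cytosolic aminotransferase, read below the median level of all probe sets (percentile 39.1) and changed by -0.26 (limma adjusted p = 0.0255). Acat1, the thiolase of isoleucine and ketone metabolism, changed by -0.19 (0.0216). Both calls were lost by the methods' t-test (0.0918 and 0.0576), by which 1 of the 13 fell (Dld) and 1 rose (Hsd17b10, the hydroxyacyl-CoA dehydrogenase of the isoleucine branch, adjusted p = 0.0620 by limma). Hsd17b10 changed by 0.14 with no overlap between groups. By limma it passed as higher with an intensity trend and robust variance (adjusted p = 0.0226) and with array weights (0.0470). It also passed when the dimmest 25% (0.0440) or 50% (0.0271) of probe sets were left out. Without single arrays, Bcat1 lost its call for unloaded replicate 2 and weight bearing replicates 1 and 3 (0.0592 to 0.0701), and Acat1 for unloaded replicates 2, 3 and 4 and weight bearing replicates 1, 2 and 3 (0.0530 to 0.0597). Acadsb and Acad8, the acyl-CoA dehydrogenases of the isoleucine and valine branches, changed by -0.09 (0.290) and -0.06 (0.452).

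**Figure D3:**
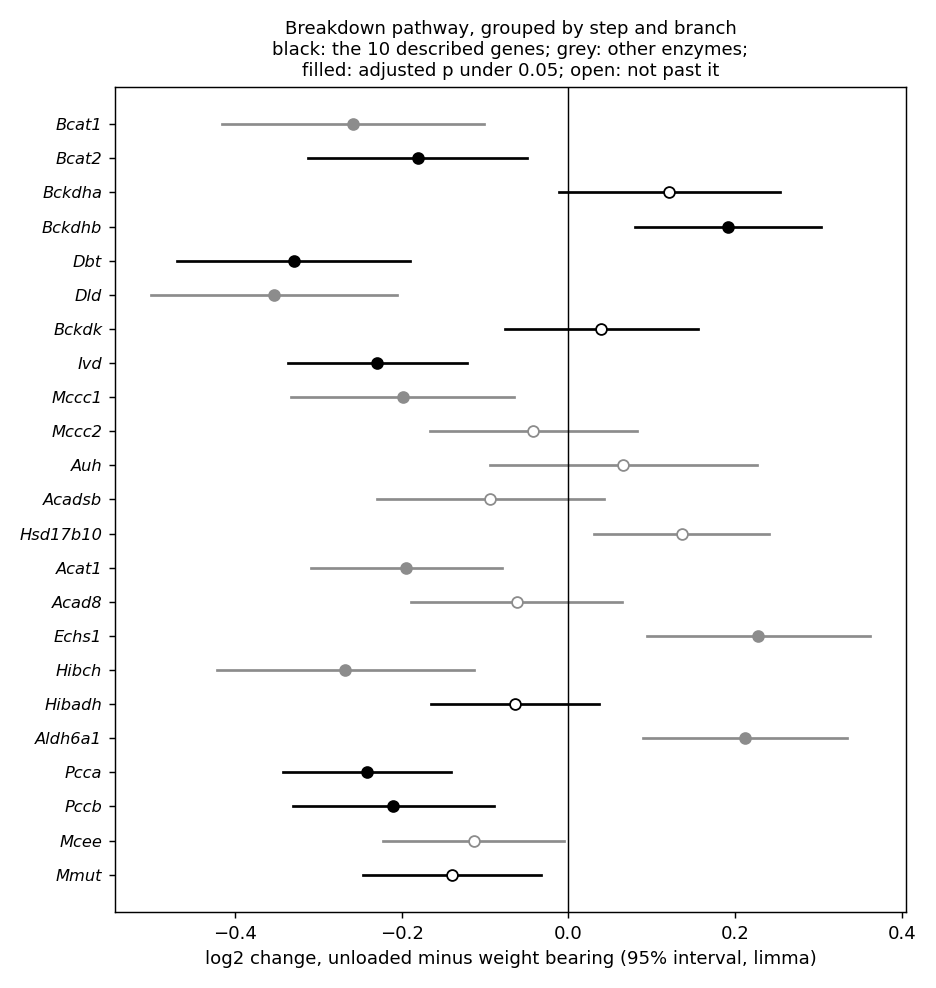
Log2 change, unloaded minus weight bearing, with its 95% interval (limma, 4 arrays per group) for the 10 described genes (black) and 13 other enzymes (grey), grouped by step and branch from transamination to the mutase; filled points passed an adjusted p under 0.05. Of the filled points 10 lie to the left of 0 and 3 (Bckdhb, Echs1 and Aldh6a1) to the right.

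Among 8 listed genes for transport, regulation and cofactors of the pathway, 2 rose, 0 fell and 6 did not pass, by limma and by the methods' t-test alike. Klf15, a transcription factor known to induce amino acid breakdown genes in muscle, including Bcat2, read 8.43, 8.45, 8.43 and 8.37 in unloaded and 8.11, 8.02, 8.20 and 8.19 in weight bearing muscle. All unloaded arrays were higher, by 1.22-fold (change 0.29, limma adjusted p = 0.00374). Slc25a44, a mitochondrial carrier of branched-chain amino acids, read 8.70, 8.70, 8.65 and 8.64 against 8.44, 8.26, 8.43 and 8.43. It was also 1.22-fold higher in unloaded muscle with no overlap (change 0.28, limma adjusted p = 0.00453). Both calls held in every alternative tried. The biotin genes Hlcs (0.03, adjusted p = 0.804) and Btd (-0.16, 0.0509) and the vitamin B12 genes Mmaa (-0.26, 0.0557), Mmab (-0.04, 0.565) and Mmadhc (0.07, 0.392), which serve the carboxylases and the mutase, did not pass the test. Btd did pass as lower in 7 of the 16 alternatives (adjusted p = 0.0240 to 0.0492) and Mmaa in 6 (0.0337 to 0.0471).

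The amino group that BCAT2 passes to glutamate leaves muscle mainly in alanine and glutamine, and a gene of each route rose in unloaded muscle. Gpt2, the mitochondrial alanine aminotransferase, read 11.17, 11.08, 11.18 and 11.07 in unloaded and 10.45, 10.37, 10.38 and 10.60 in weight bearing muscle. The groups lay far apart, a rise of 0.67 on the log2 scale (SE 0.06, limma adjusted p = 6.8e-05). Glul, glutamine synthetase, read 11.08, 11.28, 11.28 and 10.99 against 10.65, 10.54, 10.54 and 10.59. It rose 1.49-fold with no overlap (limma adjusted p = 4.2e-04), and both rises held in every alternative tried.

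Gpt, the cytosolic alanine aminotransferase, went the other way. It read 6.24, 6.28, 6.69 and 6.47 in unloaded and 6.76, 6.77, 6.77 and 6.71 in weight bearing muscle, a change of -0.34 (limma adjusted p = 0.0214). The call was lost by the methods' t-test (0.145) and without unloaded replicate 2 (0.0610). Got1, the cytosolic aspartate aminotransferase, changed by -0.20 (0.0423), a call lost by the methods' t-test (0.0918), with quantile normalization (0.0964) and without any of unloaded replicates 1, 2 and 4 or weight bearing replicates 1, 2 and 3 (0.0622 to 0.104). Glud1, glutamate dehydrogenase, changed by 0.00 (0.970). Of the 5 measured genes of this list, 2 were thus called higher, 2 lower and 1 neither. Got2 was not analysed here.

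**Figure D4:**
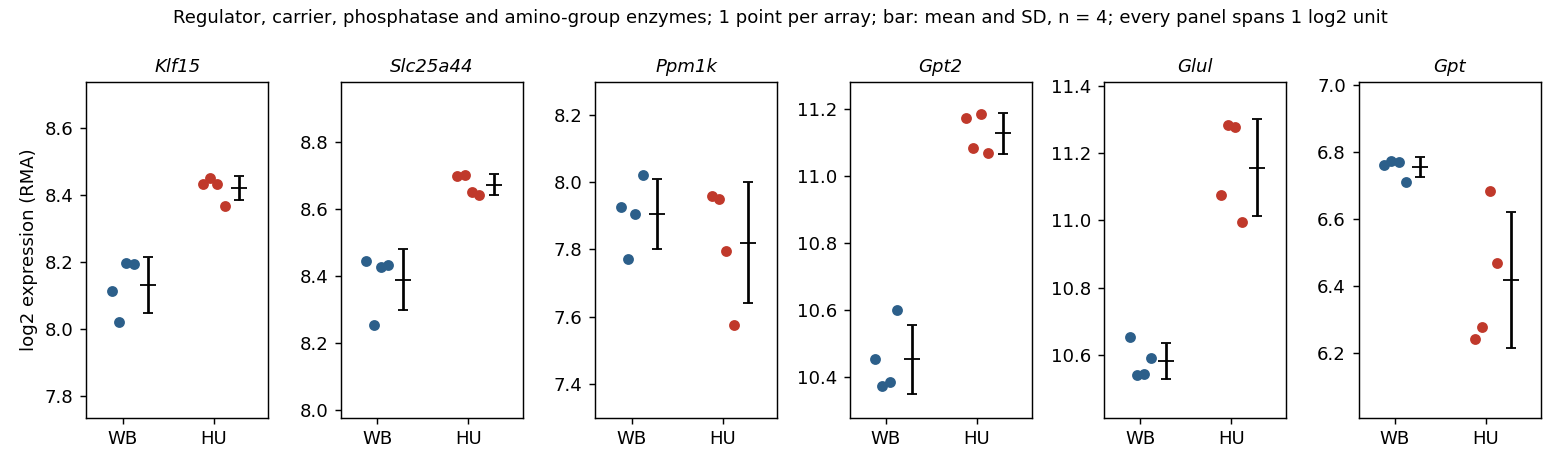
Log2 expression (RMA) of the regulator Klf15, the carrier Slc25a44, the phosphatase Ppm1k and the amino-group enzymes Gpt2, Glul and Gpt on each array, weight bearing (WB, blue) and unloaded (HU, red), with mean and SD of 4 arrays; every panel spans 1 log2 unit. Unloaded arrays lie above all weight bearing arrays for Klf15, Slc25a44, Gpt2 and Glul, below them for Gpt, and overlap with them for Ppm1k.

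The products of branched-chain amino acid breakdown enter the TCA cycle, and its later steps resemble beta-oxidation, so the lists of those pathways are set beside it. Of 20 measured TCA cycle and pyruvate dehydrogenase genes, 14 fell, 0 rose and 6 did not pass, with a median change of -0.25. By the methods' t-test 16 of the 20 fell and 0 rose. The largest falls were those of Dlat, the E2 core of pyruvate dehydrogenase (-0.47, limma adjusted p = 2.8e-04), and Sdhb, the iron-sulphur subunit of succinate dehydrogenase (-0.43, 5.5e-04). Of 16 genes of mitochondrial beta-oxidation, 12 fell, 0 rose and 4 did not pass, with a median of -0.26. By the methods' t-test 11 of the 16 fell and 0 rose. The largest falls there were those of Hadhb of the trifunctional protein (-0.80, limma adjusted p = 0.00157) and the thiolase Acaa2 (-0.66, 2.1e-05). Hadhb read near the middle of all probe sets (percentile 55.7), with an SD of 0.28 among the unloaded arrays. Beside these lists, 5 of the 10 branched-chain genes fell and 1 rose, with a median of -0.16. Neither neighbouring list held a gene called higher, but this depends on how shared genes were assigned. Echs1, shared with fatty acid oxidation and called higher, was counted among the other enzymes of the branched-chain pathway. Dld, shared with pyruvate dehydrogenase and called lower, was counted there too. The difference between the lists was not tested.

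**Figure D5:**
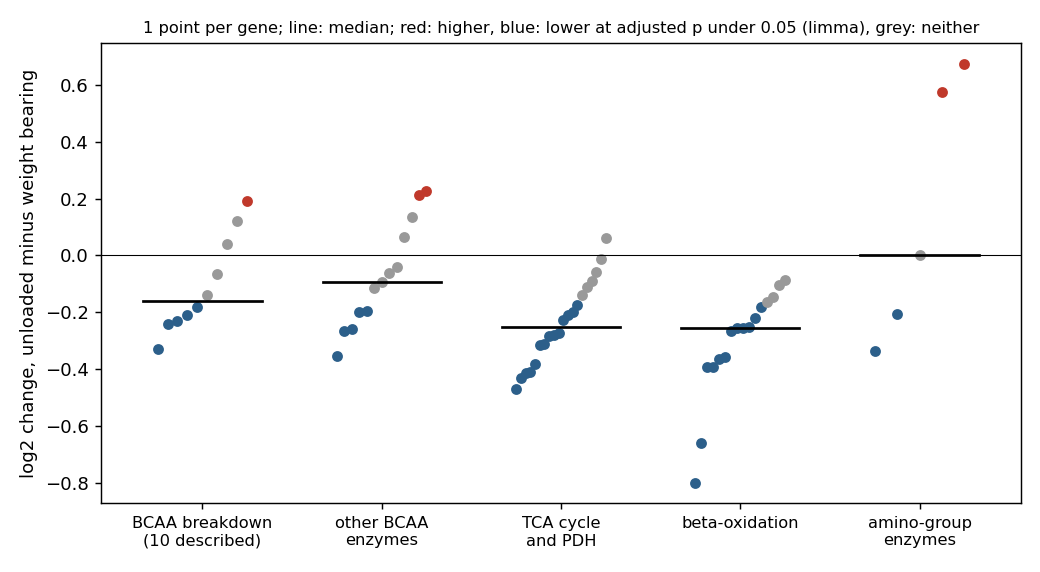
Change of each gene in 5 lists on the log2 scale, unloaded minus weight bearing, with the median of each list as a line; red points were called higher and blue points lower at an adjusted p under 0.05 (limma), grey points neither. Medians are -0.16 for the 10 described genes, -0.09 for the other pathway enzymes, -0.25 for the TCA cycle and pyruvate dehydrogenase (PDH), -0.26 for beta-oxidation and 0.00 for the amino-group enzymes.

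As a check of the labelled tissue, Ckm, Acta1, Mylpf, Tnnt3 and Myh4, genes of the contractile apparatus and energy metabolism of skeletal muscle fibres, all lay at or above percentile 99.6 of the mean levels of all probe sets. Markers of other cells and fibre types moved with unloading beside the branched-chain genes. Summed linear levels of 7 slow fibre markers were 7476 to 10442 on the unloaded and 11144 to 11827 on the weight bearing arrays, and 4 of the 7 were called lower by limma but 0 by the methods' t-test. Sums for 8 muscle fibre markers were 54229 to 55648 against 57569 to 60173, with 4 lower and 1 higher by limma (5 and 1 by the methods' t-test). Sums for 6 fibroblast markers were 6693 to 6946 against 9650 to 11071, with 4 lower by both tests (Col1a1, Col1a2, Col3a1 and Lum). The other fibroblast markers, Dcn (-0.02, limma adjusted p = 0.782) and Pdgfra (-0.11, 0.0898), were not called by either test. Sums for 6 macrophage markers were 901 to 1112 against 1223 to 1493, with 5 lower (4 by the methods' t-test). Endothelial markers summed to 2924 to 3066 against 3099 to 3532, with 2 of 6 lower by both tests. The 6 adipocyte markers, of a cell type that also breaks down branched-chain amino acids, overlapped (2834 to 4466 against 3058 to 4089) and 0 were called by either test. In both groups the lowest adipocyte sum was that of replicate 3, and the sums were not compared by replicate number. The part of these shifts in the changes of the branched-chain genes was not tested, and in whole muscle RNA fewer cells of a type and less RNA per cell cannot be told apart.

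Over the 8 arrays the 5 genes most like Dbt, among probe sets with a mean above the median of all, were Hrc (Pearson's r 0.989), Fmc1 (0.982), Tln2 (0.978), B3gnt9 (0.976) and Suclg1 (0.976). These correlations span both groups and hence include the shift between them. Suclg1, a subunit of succinyl-CoA ligase in the TCA cycle, changed by -0.32 on the log2 scale. After each group's mean was taken off, the 45 pairs of the 10 genes had a median r of 0.18 over 8 arrays, from -0.64 (Bckdha with Hibadh) to 0.83 (Bcat2 with Ivd), with 30 pairs above 0. The arrays of a group share tissue, platform and normalization, so this is a description.

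No array stood apart as a whole. Correlations over all probe sets were 0.996 to 0.997 within groups and 0.992 to 0.994 between groups, array medians ran from 6.28 to 6.33, and principal component 1 carried 52.2% of the variance. Within the unloaded group, replicate 3 was the highest array for 8 of the 10 genes, by 0.07 above the group mean on average, and it also had the highest array median. Within the weight bearing group, replicate 4 was highest for 6 genes and replicate 2 lowest for 5.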

How the data were processed

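In the study 8 independent RNA samples, 4 of hind limb unloaded and 4 of weight bearing mice, were hybridised at a university core facility. The arrays were Affymetrix Mouse Gene 1.0 ST, 1 per RNA sample. The study's text does not state whether each sample came from a single mouse. The authors applied RMA, named in the submitters' processing notes, with a custom probe set definition, and deposited log2 expression values per gene. RMA corrects background, equalises array distributions and summarises probes, which narrows differences of dim genes. For the definition's release and genome build: not given in the sources used here. Of 21212 probe sets 20656 were named through their Entrez ID in RefSeq. All 8 sample columns entered the fit, 0 were left over, and no arrays were identical.

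The deposited log2 values were used without further scaling or filter and compared in R 4.3.3 by limma 3.58.1 (lmFit and eBayes, two-sided tests), adjusting p over all probe sets by Benjamini-Hochberg. Intervals are 95% intervals of the fit. The fit was also run on simulated arrays with independent noise. The outcome is not given here and is not used to back any result. The methods' t-test (the study names a t-test and q-values; unequal variances and the Benjamini-Hochberg adjustment were chosen here), an intensity trend with robust variance, array weights, filters on dim probe sets (25% and 50%), quantile normalization, centred medians, a replicate block and each array left out in turn were alternatives. The members and lists were chosen with earlier results of these data known. Named genes were all members, all genes of the pathway, regulator and amino-group lists, the 2 largest called changes of the TCA cycle and beta-oxidation lists, markers, and the 5 genes most correlated with the called member of largest change. The alternatives per gene for genes other than the 10 members were added after the data were seen, for those with an unadjusted limma p under 0.05. A gene of the pathway is not reported here. Motifs were searched with Python 3.11.15. The number of arrays limits the precision. The p-values weigh the difference between groups against the spread among the 4 arrays within each group. In limma that spread is pooled over both groups and moderated by the variances of all probe sets. Replicate numbers were checked as pairs: same-numbered arrays had deviations from the group means correlated at 0.02, 0.04, 0.12 and 0.10. Other pairings of an unloaded with a weight bearing array gave -0.14 to 0.10. Same-numbered arrays were not treated as pairs in the main fit, and the replicate block was run as an alternative.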

Additional observations from a re-analysis of the deposited data

Results flagged for a closer look

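For 36 genes of the pathway, its regulators and the amino-group enzymes, each group of 4 arrays was checked for an array whose gap to its nearest neighbour took up more than 0.829 of the group's range. This was so in 6 of 72 groups; chance marks about 1 group in 20. Bckdk was low on unloaded replicate 1 (10.60, the next 10.76, a gap of 0.884 of the range). Pccb was high on weight bearing replicate 1 (8.83, the next 8.77, 0.836), and leaving that array out ended the call of Pccb. Bcat1 was low on unloaded replicate 2 (5.39, the next 5.54, 0.835), and Slc25a44 was low on weight bearing replicate 2 (8.26, the next 8.43, 0.907). Acat1 (10.35, the next 10.29, 0.971) and Btd (6.40, the next 6.29, 0.949) were high on unloaded replicate 1. Unloaded replicate 1 accounts for 3 of the 6.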

How the results depend on the processing

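Over 16 alternatives the changes of the 10 genes kept direction in all 160 values and the side of the threshold in 140. Of the rest, 17 lost the call and 3, all of Mmut, gained it. The kept direction was partly fixed in advance. The methods' t-test, the trend with robust variance, the dim filters and the replicate block leave each log2 change as it is. Leaving out single arrays cannot turn the direction where the groups do not overlap. The median change of the 10 genes ran from -0.19 to -0.14. Ivd and Pcca kept their calls throughout, and Dbt lost its call with the methods' t-test alone. With that test 2 of the 10 genes were called lower in place of 5, and of the other pathway enzymes 1 higher and 1 lower in place of 2 and 5; over all probe sets it called 1393 higher and 1374 lower in place of 2715 and 2324, and without unloaded replicate 3 limma called 1802 higher. With single arrays left out, between 3 (without unloaded replicate 2 or weight bearing replicate 1) and 5 of the 10 genes were lower and between 0 (without unloaded replicate 3 or weight bearing replicate 1 or 2) and 1 higher, and of the other enzymes between 1 (without unloaded replicate 2 or weight bearing replicate 1) and 5 were lower and between 0 and 2 higher. The shift of Pcca minus Pccb ran from -0.0589 to 0.00537 with single arrays left out, its sign turning without unloaded replicate 3. With the replicate block 4 of the 10 genes were lower and 1 higher; Bcat2 (adjusted p = 0.0883) and Mccc1 (0.0719) lost their calls, and no other call changed among the 10 genes and those listed genes to which the block was applied, which had an unadjusted p under 0.05. The labels used here tie same-numbered arrays by number alone. In deviations from the group means, 3 of 4 unloaded arrays correlated best with their own number. What such arrays have in common was not tested. Where a change lost its call the cause was not tested. With 4 arrays per group, changes near 1.1-fold are at the limit of what these arrays resolve.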
